A study of Mus musculus with 577 samples.

Results

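The 10 genes described here encode subunits of Polycomb repressive complex 2 (PRC2): Ezh2, Ezh1, Suz12, Eed, Rbbp4, Rbbp7, Mtf2, Phf19, Jarid2 and Aebp2. They are 10 of the 22060 protein-coding genes counted in these data. Suz12 and Jarid2 were chosen by their measured levels in single granulosa cells by DRaqL-SC3-seq, which were higher in non-neighboring than in neighboring cells, so in that dataset their difference by position is a description and was not tested. Ezh2 belongs to the genes that the study linked to oocyte diameter in the same DRaqL-SC3-seq oocytes, and the other members were taken by membership of the complex. On GRCm38, the annotation places Suz12 (ENSMUSG00000017548) at chr11:79993106-80034123 on the plus strand, Jarid2 (ENSMUSG00000038518) at chr13:44729474-44921643 on the plus strand, Ezh2 (ENSMUSG00000029687) at chr6:47530139-47595341 on the minus strand and Rbbp7 (ENSMUSG00000031353) at chrX:162760402-162779092 on the plus strand, the 4 members on which most results turn.

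PRC2 methylates histone H3 at a lysine whose trimethylation marks silenced genes, and it keeps developmental regulators repressed in stem cells and in differentiated tissues. Ezh2 and Ezh1 encode the alternative catalytic subunits, Ezh2 being typical of dividing cells and Ezh1 of cells that divide little. Suz12 is the scaffold, Eed binds the methylated histone tail and stimulates the enzyme, and Rbbp4 and Rbbp7 are histone-binding WD-repeat proteins shared with other chromatin complexes. Mtf2 and Phf19 are Polycomb-like subunits of one variant of the complex, and Jarid2 and Aebp2 define the other. In growing oocytes, PRC2 is known for laying down the histone methylation that is carried into the embryo.

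Single cells were isolated by laser capture microdissection (LCM) from frozen ovary sections of 8-week-old female mice, and single mouse embryonic stem cells (mESCs, grown with GSK and MEK inhibitors and LIF) were taken either fresh or by LCM from frozen cell blocks. DRaqL is a lysis with the detergent sodium deoxycholate that lets cDNA be amplified from a fixed section without RNA purification, and it was combined with SC3-seq, SMART-Seq v4 and Smart-seq2, each of which reads the 3′ ends of transcripts. Alcohol-fixed sections gave granulosa cells that neighbored the oocyte or did not, and oocytes of primary or of secondary-to-early antral follicles. They were processed by DRaqL-SC3-seq (31 neighboring and 26 non-neighboring cells, 14 primary and 30 secondary-to-antral oocytes), SMART-Seq v4 without DRaqL (17, 17, 7 and 11), DRaqL-SMART-Seq v4 (20, 19, 6 and 9), and, for granulosa cells, Smart-seq2 without DRaqL, called LCM-seq here (17 and 20), and DRaqL-Smart-seq2 (15 and 19). Sections kept in 10% formalin for 24 h were processed by DRaqL-Protease-Smart-seq2 (12 neighboring and 12 non-neighboring granulosa cells, 5 primary and 7 secondary-to-antral oocytes). From 1 further mouse, taken in proestrus, one ovary was sectioned for LCM (35 neighboring and 35 non-neighboring granulosa cells and 8 secondary-to-antral oocytes, DRaqL-Smart-seq2) and the other was dissociated (14 granulosa cells attached to the oocyte, 21 not attached and 14 grown oocytes, Smart-seq2). According to the study, the dissociated cells came from cumulus-oocyte complexes of fully grown follicles and were handled in medium with a cAMP analog. Bulk-type samples were 7 pools of 10 neighboring cells, 7 pools of 10 non-neighboring cells and 7 samples of bulk granulosa cells. No allele or transgene is named for any group. The strain is not given in the sources used here, nor, apart from the cells of that 1 mouse, which animal each cell came from. According to the study, one ovary supplied the sections for the comparison of amplification methods, so the alcohol-fixed and formalin-fixed datasets can share an animal, and values alike across them are not independent repeats. A further 3 granulosa cells that the authors kept apart for a mixed profile entered an alternative only. Of the dissociated granulosa cells, 3 of 14 attached and 0 of 21 unattached cells had oocyte genes at 10% of the median oocyte or more, and all are included below unless stated.

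Values are RPM, the reads of a gene scaled to a common total of protein-coding reads, averaged as log2 (RPM+1) and given with the SD over cells. Library totals in DRaqL-SC3-seq had medians of 585673 reads in neighboring and 544071.5 in non-neighboring granulosa cells, 1498327.5 in primary and 1553491.5 in secondary-to-antral oocytes, and 2068207 in fresh and 1951462 in LCM mESCs. Totals ran from 12748 reads in a dissociated granulosa cell to 17506401 in a section of an oocyte. Because no cell is tied to an animal except those of the 1 proestrus mouse, each group of single cells counted as 1 sample: its SD describes cells, and no p-value was taken over cells. A difference between groups of cells is called large here when it reached 1 on the log2 scale, that is, 2-fold.

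The 10 granulosa genes, led by Inha, summed to a median of 6095 RPM in neighboring and 6985 RPM in non-neighboring cells by DRaqL-SC3-seq, against 88.2 RPM in fresh mESCs. The 14 oocyte genes summed to a median of 36921.5 RPM in secondary-to-antral and 9447 RPM in primary oocytes. They were also present in granulosa cells, with medians of 2943 RPM in neighboring and 64.2 RPM in non-neighboring cells, and none of the 14 was at 0 in every neighboring cell. This oocyte RNA was unevenly spread: neighboring cells numbered below 70 had a median of 1617 RPM and those numbered from 70 had 6709 RPM. Every difference by position below was therefore also taken without the cells whose oocyte genes reached 10% of the median oocyte.

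Promoters are shown for Suz12, Ezh2 and Rbbp7, the members whose levels were higher by at least 1 in oocytes of larger follicles in each of 4 datasets (below, by stage). No share of all genes that meet this criterion is given here. Each promoter is the 300 bases from 250 before to 50 after the RefSeq start of transcription on GRCm38.p6, written 5′ to 3′ on the strand of the gene. Capitals mark TTTCCCGC or TTTGGCGC on either strand, letters of the E2F type of site that many cell cycle promoters hold. Suz12 lies at chr11:79992856-79993155 on the plus strand, Ezh2 at chr6:47594981-47595280 on the minus strand and Rbbp7 at chrX:162760122-162760421 on the plus strand.
Suz12: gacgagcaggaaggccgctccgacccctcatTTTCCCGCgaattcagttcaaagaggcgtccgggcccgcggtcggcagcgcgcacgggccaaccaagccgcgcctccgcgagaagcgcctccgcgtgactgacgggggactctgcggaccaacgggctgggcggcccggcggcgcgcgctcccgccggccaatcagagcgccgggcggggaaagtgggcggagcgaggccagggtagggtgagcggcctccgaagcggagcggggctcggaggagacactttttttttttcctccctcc
Ezh2: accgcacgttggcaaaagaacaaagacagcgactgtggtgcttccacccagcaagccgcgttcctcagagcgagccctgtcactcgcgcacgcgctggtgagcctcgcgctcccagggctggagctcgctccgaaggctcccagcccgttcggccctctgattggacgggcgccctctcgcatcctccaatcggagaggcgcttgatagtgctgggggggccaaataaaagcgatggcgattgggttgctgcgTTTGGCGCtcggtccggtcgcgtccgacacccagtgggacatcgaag
Rbbp7: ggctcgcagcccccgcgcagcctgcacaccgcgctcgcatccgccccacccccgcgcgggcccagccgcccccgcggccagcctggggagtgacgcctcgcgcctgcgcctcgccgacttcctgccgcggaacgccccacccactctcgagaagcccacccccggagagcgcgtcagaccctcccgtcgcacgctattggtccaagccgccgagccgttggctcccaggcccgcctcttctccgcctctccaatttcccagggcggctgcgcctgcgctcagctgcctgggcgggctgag
The letters begin 219 bases before the start in Suz12 and 3 bases after it in Ezh2, and they are not in the Rbbp7 window. Over all members, which all matched a RefSeq entry, 3 of 14 promoters held them (Suz12, Ezh2 and Phf19), beside 1.565% of 32851 promoters of the same length. A match is a run of letters and was not tested as a binding site. The GC content was 71% for Suz12, 64.3% for Ezh2 and 75.7% for Rbbp7, which lacks the letters, against a median of 52.7% over all promoters.

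Among the 6 groups of single cells read by DRaqL-SC3-seq, Ezh2 was highest in oocytes of the larger follicles. Ezh2 ran from 335.1 through 689.3 to 894.1 RPM (lowest, median and highest) in the 30 secondary-to-antral oocytes, a mean of 9.34 ± 0.37 on the log2 scale, and from 63 through 209.9 to 471.8 RPM in the 14 primary oocytes (7.72 ± 0.76). Ezh2 averaged 7.59 ± 0.73 in 45 fresh and 7.34 ± 0.86 in 36 LCM mESCs. It was lower and far more scattered in granulosa cells, at 5.91 ± 3.09 in neighboring and 5.09 ± 2.53 in non-neighboring cells. The step from secondary-to-antral oocytes to the next group exceeded the larger SD of the pair, whereas primary oocytes and both types of mESC did not differ beyond their spread. Ezh1 had another order. It was highest in primary oocytes (7.02 ± 1.49, median 190.9 RPM), followed by secondary-to-antral oocytes (6.07 ± 0.57), with a step beyond the larger SD down to fresh mESCs (3.61 ± 1.82), non-neighboring cells (2.97 ± 2.91), LCM mESCs (2.71 ± 2.07) and neighboring cells (1.76 ± 2.96). A read of Ezh1 was found in 12 of 31 neighboring cells, with a 95% Clopper-Pearson interval of 21.9% to 57.8%.

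**Figure D1:**
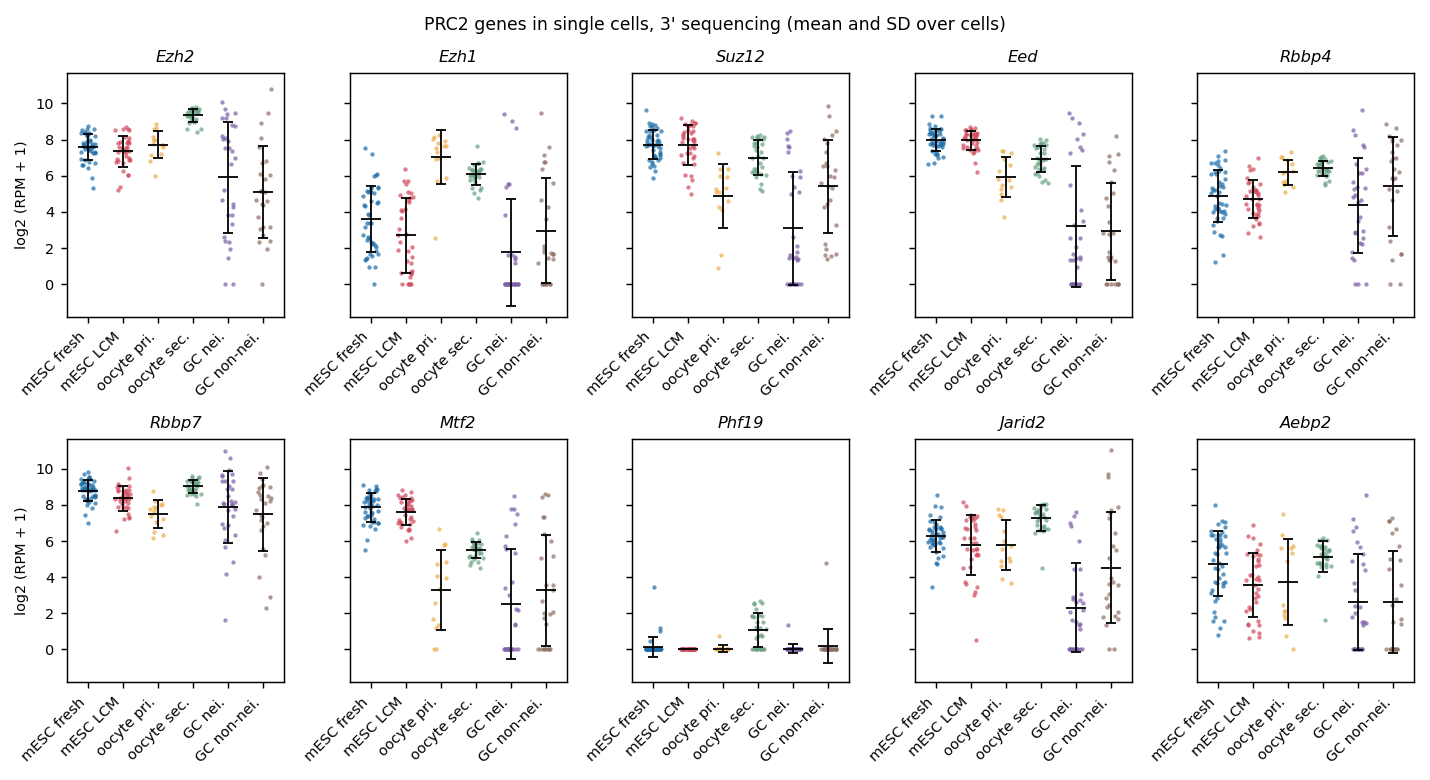
Levels of the 10 genes in single cells by DRaqL-SC3-seq, which the study's legends name for fresh and LCM mESCs alike. The vertical axis is log2 (RPM+1), a point is 1 cell and the bar is the mean with its SD. Ezh2 is tightest and highest in oocytes of secondary-to-antral follicles, at 9.34 ± 0.37, granulosa cells spread from 0 upward for most members, and Phf19 lies near 0.

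Suz12, the scaffold, was highest in mESCs, with 7.73 ± 0.81 in fresh and 7.70 ± 1.09 in LCM cells, then in secondary-to-antral oocytes (6.99 ± 0.96), non-neighboring granulosa cells (5.40 ± 2.56), primary oocytes (4.86 ± 1.77) and neighboring granulosa cells (3.10 ± 3.13). In granulosa cells, Suz12 ran from 0 through 2.07 to 348.1 RPM in neighboring cells and from 1.60 through 53.3 to 933 RPM in non-neighboring cells. The ranges overlapped, with 11 of 31 neighboring cells below the lowest non-neighboring cell and 3 of 26 non-neighboring cells above the highest neighboring one. Each step between neighbors in this order stayed within the larger SD. Eed, the reader of the mark, was likewise highest in mESCs (7.98 ± 0.61 fresh, 7.95 ± 0.54 LCM) and lower in secondary-to-antral oocytes (6.91 ± 0.72), primary oocytes (5.92 ± 1.11) and granulosa cells (3.21 ± 3.34 neighboring, 2.93 ± 2.69 non-neighboring). Rbbp7 was high in every group, from 7.47 ± 2.02 in non-neighboring cells to 9.03 ± 0.37 in secondary-to-antral oocytes, with a read in every cell of all 6 groups. Rbbp4 ran from 4.36 ± 2.61 in neighboring cells to 6.41 ± 0.42 in secondary-to-antral oocytes.

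Of the accessory subunits, Mtf2 was at 7.86 ± 0.79 in fresh and 7.61 ± 0.74 in LCM mESCs, against 5.50 ± 0.46 in secondary-to-antral and 3.28 ± 2.19 in primary oocytes and 2.54 ± 3.04 and 3.28 ± 3.08 in neighboring and non-neighboring granulosa cells, with steps beyond the larger SD on both sides of secondary-to-antral oocytes. Phf19 was nearly absent: no read was found in 36 LCM mESCs, which allows a level of up to 0.0426 RPM over their summed reads, and 29 reads in 45 fresh mESCs. The group with most Phf19-positive cells was secondary-to-antral oocytes, where 20 of 30 cells had a read but the summed level was 1.61 RPM (95% Poisson interval 1.27 to 2.01). Jarid2 was highest in secondary-to-antral oocytes (7.27 ± 0.71, median 176.8 RPM), followed by fresh mESCs (6.29 ± 0.89), primary oocytes (5.80 ± 1.38) and LCM mESCs (5.78 ± 1.65). Aebp2 stayed between 2.62 ± 2.81 in non-neighboring cells and 5.14 ± 0.85 in secondary-to-antral oocytes. Intervals and limits of this kind cover counting error only, since amplified reads carried no molecular identifiers.

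Compared within each dataset, oocytes had higher means of log2 (RPM+1) than granulosa cells for most members, but so did most genes. Members that differed by at least 1 numbered 8 of 9 counted in DRaqL-SC3-seq (82.3% of all genes counted), 8 in SMART-Seq v4 (82.2%), 6 in DRaqL-SMART-Seq v4 (65.8%), 4 in formalin-fixed cells (63.9%), 7 in same-mouse LCM cells (78.7%) and 8 in same-mouse dissociated cells (78.9%). A gene was counted when the mean of both groups' means reached 2, which left out Phf19 in all of these. Ezh1, Eed and Aebp2 were higher in oocytes by at least 1 in all 6 datasets by means over cells, but with summed counts Ezh1 turned to -0.60 in SMART-Seq v4 and -0.19 in same-mouse LCM cells, and Aebp2 to -1.23, -0.12 and -1.11 in SMART-Seq v4, DRaqL-SMART-Seq v4 and same-mouse LCM cells. When RPM were taken from the summed counts of a group, which gives weight to the few granulosa cells with many reads, 1 of 9 members differed by 1 in DRaqL-SC3-seq, and the median of the members went from 2.20 to -0.00293 in SMART-Seq v4 and from 2.23 to -0.159 in same-mouse LCM cells. The shares of all genes above are for means over cells. The values with summed counts therefore have no background here and are not read as particular to the members.

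By follicle stage, Ezh2, Suz12, Rbbp7, Eed, Aebp2 and Phf19 averaged higher in secondary-to-antral than in primary oocytes in all 4 datasets with both stages. Ezh1 and Rbbp4 did not. Phf19 was near the floor, with differences from 0.05 to 2.02. No share of all genes that were higher in all 4 datasets at once is given here. For Ezh2 the difference (secondary-to-antral minus primary, log2 scale) was 1.61 in DRaqL-SC3-seq, 2.33 in SMART-Seq v4, 3.56 in DRaqL-SMART-Seq v4 and 2.86 in formalin-fixed cells. Suz12 differed by 2.13, 1.85, 2.56 and 1.91 in the same order, Rbbp7 by 1.54, 1.22, 1.36 and 1.96, and Eed by 1.00, 0.84, 1.48 and 3.26. The sign of these 16 differences was positive under each of the 5 other ways of scaling or summarizing that were tried. It was also positive when any single oocyte was left out, an alternative added after the values were seen, but low primary oocytes carried part of several differences. Ezh2 was at 0 reads in primary oocyte 2 of DRaqL-SMART-Seq v4, without which its difference there was 2.49, and at 1 read in primary oocyte 3 of SMART-Seq v4, without which it was 1.59. Suz12 was at 0 reads in primary oocyte 5 of DRaqL-SMART-Seq v4 and at 3 reads in primary oocyte 3 of the formalin-fixed cells, and differed by 1.57 and 1.21 without them. Formalin-fixed primary oocyte 2 was the lowest for both Eed (1 read) and Rbbp7 (49 reads), which differed by 2.33 and 1.34 without it. Suz12 in DRaqL-SC3-seq had a lowest value of 0.827 RPM, a median of 35.7 and a highest of 151.5 RPM in primary oocytes, and 34.4, 130.9 and 300.8 RPM in secondary-to-antral oocytes, so that the groups overlapped. Markers differed by stage too. Medians of the granulosa genes were 468.4, 571.5, 367.1 and 929.8 RPM in primary oocytes, in the order above. They were 143.8, 388.6, 230.55 and 570 RPM in secondary-to-antral oocytes. Medians of the cell cycle genes were 1823, 1663, 1535 and 1321 RPM in primary and 3356, 3025, 3140 and 3163 RPM in secondary-to-antral oocytes. The part of these markers was not tested.

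The other catalytic subunit did not share the difference of Ezh2 by stage. Ezh1 differed by -0.95, 0.30, -0.74 and -1.11, and exceeded the larger SD only in formalin-fixed cells, where it averaged 6.64 ± 0.64 in primary and 5.53 ± 1.01 in secondary-to-antral oocytes. Rbbp4 differed by less than 1 in each dataset (0.23, -0.44, -0.83 and -0.27). Of the accessory subunits, Aebp2 was higher in secondary-to-antral oocytes by 1.42, 1.06, 1.68 and 0.44, Mtf2 by 2.22 in DRaqL-SC3-seq but -0.21 in formalin-fixed cells and -0.04 in DRaqL-SMART-Seq v4 without primary oocyte 2, and Jarid2 by 1.48 in DRaqL-SC3-seq but -0.40 in formalin-fixed cells. Aebp2 was at 0.65 in SMART-Seq v4 without primary oocyte 3. In formalin-fixed cells, Aebp2 was at -0.08 and Mtf2 at 0.34 without primary oocyte 1, and Jarid2 at 0.01 without primary oocyte 4. Members past 1 numbered 6 in DRaqL-SC3-seq, 4 in SMART-Seq v4, 5 in DRaqL-SMART-Seq v4 and 5 in formalin-fixed cells, of 9 counted in each. Of all genes counted, 48.6%, 47.9%, 57.2% and 52% were past 1, so the number of members was near the background. The median of the members was 1.45, 0.67, 1.18 and 1.17, beside 0.37, 0.27, 0.28 and -0.03 for all genes counted. Ezh2 in DRaqL-SC3-seq oocytes was among the values by which the study linked genes to diameter, and that dataset gives no independent support for its difference.

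**Figure D2:**
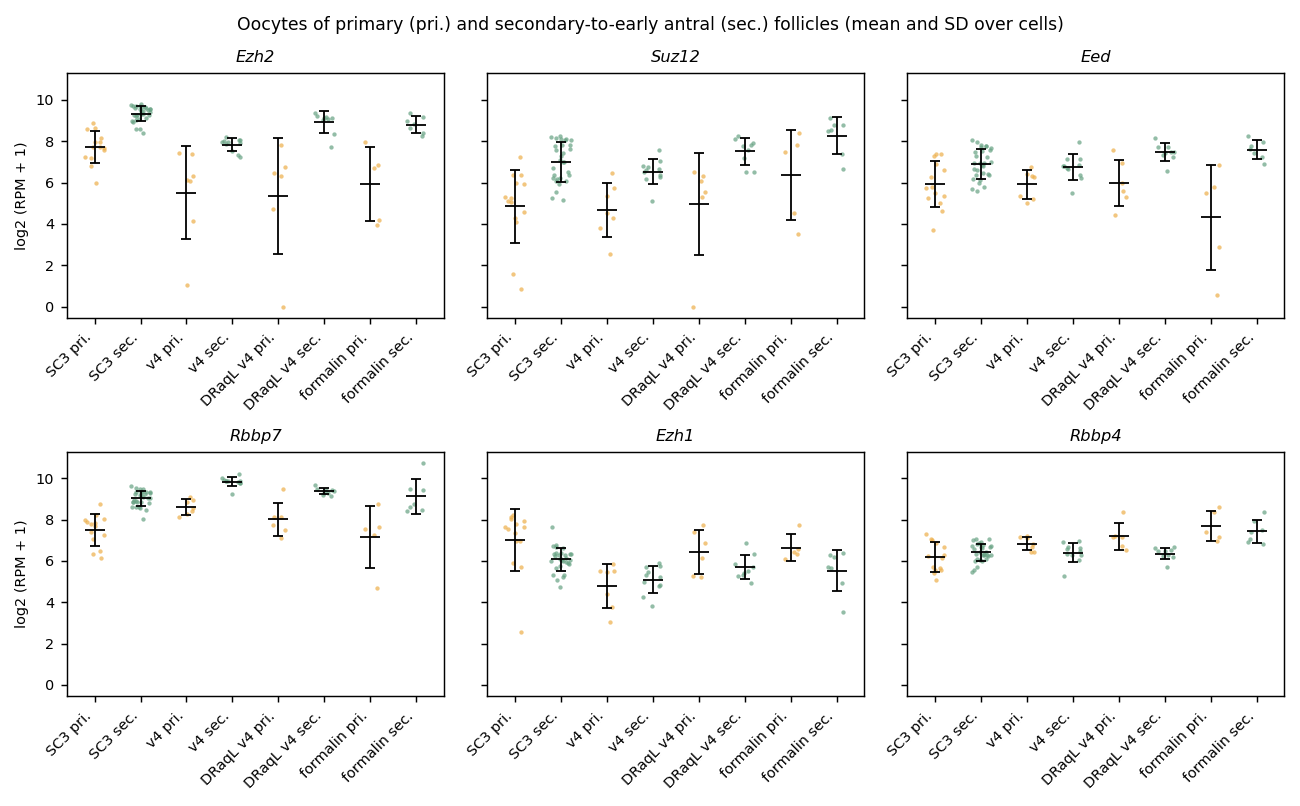
Ezh2, Suz12, Eed, Rbbp7, Ezh1 and Rbbp4 in oocytes of primary (pri.) and secondary-to-early antral (sec.) follicles in 4 datasets, as log2 (RPM+1), where a point is 1 oocyte and the bar is the mean with its SD. The first 4 genes sit higher in the larger follicles in each dataset, by 0.84 to 3.56, and Ezh1 and Rbbp4 differ by -1.11 to 0.30.

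Other Polycomb genes were read from a list of 31 that holds further PRC2 partners and Polycomb repressive complex 1. Between oocyte stages, 12 of 28 counted were higher and 3 lower by at least 1 in DRaqL-SC3-seq, 13 and 1 of 26 in SMART-Seq v4, 14 and 4 of 24 in DRaqL-SMART-Seq v4, and 11 and 8 of 28 in formalin-fixed cells. Of all genes counted, 33.3% were higher and 15.3% lower, 31.1% and 16.9%, 34.96% and 22.2%, and 26.6% and 25.5%, in the same order. Ezhip, an inhibitor of PRC2 that is active in gonads, was higher in secondary-to-antral oocytes by 3.91, 4.62, 6.92 and 4.25. Kdm2b, which recruits a variant of complex 1 to CpG islands, was higher by 3.84, 4.81, 2.30 and 1.86, and Pcgf1, its partner in that variant, by 2.97, 4.05, 4.94 and 3.19. Bmi1 and Cbx2, subunits of the canonical complex 1, were higher by 1.70 to 3.27 and by 2.37 to 4.52. The gene on the list that was lower in each dataset was Asxl2, a cofactor of the deubiquitinase that opposes complex 1, by -1.66, -1.20, -1.40 and -1.87.

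From oocyte to oocyte within a stage, some pairs of members were correlated in DRaqL-SC3-seq and others were not. Over the 30 secondary-to-antral oocytes, Pearson's r of log2 (RPM+1) had a median of 0.163 over the 45 pairs, with 15 pairs above 0.5 and 13 below 0. The highest and lowest values were 0.90 for Suz12 with Eed, 0.85 for Jarid2 with Aebp2, 0.82 for Ezh2 with Rbbp7 and -0.44 for Ezh1 with Aebp2. These oocytes share a protocol and differ in diameter, which was not modeled here. No share of all pairs of genes above 0.5 is given, so the values are not read as particular to the members. For Suz12 with Eed, r was 0.77 over 11 oocytes by SMART-Seq v4, 0.64 over 14 primary oocytes and 0.43 over 14 dissociated oocytes, but 0.31 and 0.04 over fresh and LCM mESCs. For Ezh2 with Rbbp7, r was -0.30 over the 14 primary oocytes, 0.51 over the 11 by SMART-Seq v4 and 0.24 over the 14 dissociated oocytes. For Jarid2 with Aebp2, r was -0.23 over the 11 oocytes by SMART-Seq v4 and -0.12 over the 14 dissociated oocytes, against 0.51 over the 14 primary oocytes.

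Serial sections of 8 further oocytes show how closely a repeat measurement of a member comes. Between both sections of an oocyte, the SD of the difference was 0.16 for Ezh2 and 0.27 for Rbbp7, with the largest differences at 0.26 and 0.40. Suz12, Jarid2, Ezh1, Eed, Mtf2, Aebp2 and Rbbp4 had SDs between 0.48 and 0.65, and Phf19 had 1.59. The SD of the mean of both sections over the 8 oocytes was 0.15 for Ezh2, 0.45 for Suz12 and 0.23 for Jarid2, and it holds the error of the sections as well as differences between oocytes.

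By position, single granulosa cells gave differences that depended on the dataset. Suz12 (non-neighboring minus neighboring) was higher by 2.30 in DRaqL-SC3-seq, from 3.10 ± 3.13 to 5.40 ± 2.56, and Jarid2 by 2.22, from 2.31 ± 2.47 to 4.53 ± 3.07. A read of Suz12 was found in 21 of 31 neighboring and 26 of 26 non-neighboring cells, and a read of Jarid2 in 20 of 31 and 24 of 26. These are the values that chose the pair, and neither difference exceeds the larger SD over cells. In the other 7 datasets, Suz12 differed by 0.24 (SMART-Seq v4), -1.17 (DRaqL-SMART-Seq v4), 0.57 (LCM-seq), -1.16 (DRaqL-Smart-seq2), -0.75 (formalin-fixed), -0.58 (same-mouse LCM) and 0.07 (same-mouse dissociated). Jarid2 differed by 0.34, 0.11, -0.54, -0.04, 0.19, 0.03 and 0.14 in that order. By means over cells, neither gene was higher by 1 in non-neighboring cells outside the dataset that chose it, and Suz12 was lower by over 1 in 2 of the 7. With summed counts, no member was past 1 in either of those 2, nor with a pseudocount of 10 in DRaqL-SMART-Seq v4. Summed counts also turned Suz12 below 0 in SMART-Seq v4 and same-mouse dissociated cells and above 0 in formalin-fixed cells. In the 2 datasets with Suz12 lower by over 1, markers of other cells and of the cell cycle differed by position too. The 5 theca and interstitial genes, led by Cyp17a1 in DRaqL-SMART-Seq v4 and by Cyp11a1 in DRaqL-Smart-seq2, summed to a median of 221.5 RPM in non-neighboring and 0.881 RPM in neighboring cells in the former and to 4.81 and 0 RPM in the latter. The 14 cell cycle genes, led by Top2a, had medians of 1030 RPM in non-neighboring and 2158 RPM in neighboring cells in the former and of 2191 and 2795 RPM in the latter. The 14 oocyte genes had medians of 5.00 RPM in non-neighboring and 423.4 RPM in neighboring cells in the former. Their medians in the latter were 20.8 and 713.7 RPM. Suz12 stayed below 0 in both datasets without the cells rich in oocyte RNA. The part of all these markers in the difference of Suz12 was not tested. Within library pools that hold both positions, Suz12 was below 0 in 4 of 4 pools of DRaqL-SMART-Seq v4 (-3.32 to -0.04), 4 of 4 of DRaqL-Smart-seq2 (-2.40 to -0.12), 2 of 2 of formalin-fixed cells and 6 of 7 of same-mouse LCM cells, and above 0 in 2 of 4 of SMART-Seq v4, 3 of 4 of LCM-seq and 1 of 3 of same-mouse dissociated cells.

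Within DRaqL-SC3-seq, the value of Suz12 moved with the numbering of the cells. Among cells numbered below 70, Suz12 averaged 2.11 ± 2.80 in 22 neighboring and 5.46 ± 2.51 in 20 non-neighboring cells, a difference of 3.35. Among cells numbered from 70, it averaged 5.55 ± 2.58 in 9 neighboring and 5.23 ± 2.96 in 6 non-neighboring cells, a difference of -0.32. Jarid2 was higher in non-neighboring cells in both ranges, by 2.50 and 1.73. The oocyte genes also moved with the numbering, as given above. Without the cells rich in oocyte RNA (18 neighboring and 23 non-neighboring cells left), Suz12 differed by 3.64, and Jarid2 averaged 2.16 ± 2.69 in neighboring and 4.55 ± 3.15 in non-neighboring cells.

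Ezh2 was lower in non-neighboring cells in all 8 datasets, with differences from -0.13 (same-mouse dissociated) to -1.17 (LCM-seq), always within the larger SD over cells. Its sign was opposite among DRaqL-SC3-seq cells numbered below 70 (0.31), in SMART-Seq v4 with summed counts (0.30) and in same-mouse dissociated cells with summed counts (1.00), with a pseudocount of 10 (0.007) or without oocyte-rich cells (0.48). No share of all genes with the same sign in all 8 datasets is given here. Medians of the cell cycle genes were also lower in non-neighboring cells in each dataset but DRaqL-SC3-seq. In neighboring and non-neighboring cells they were 2314 and 2069 RPM in LCM-seq, 3158 and 1683 RPM in same-mouse LCM, and 2976 and 3248 RPM in DRaqL-SC3-seq. The part of these genes in the values of Ezh2 was not tested. Rbbp4 was higher by over 1 in non-neighboring cells in DRaqL-SC3-seq (1.06), SMART-Seq v4 (2.04), same-mouse LCM (1.42) and same-mouse dissociated cells (2.32) and between -0.50 and 0.14 in the other 4. It turned to -0.15 among DRaqL-SC3-seq cells numbered from 70 and to -1.23 within library pools of the same-mouse dissociated cells. Eed differed by -2.84 in formalin-fixed cells, from 5.70 ± 1.67 to 2.86 ± 2.36, and Rbbp7 was at 8.06 ± 0.93 and 6.65 ± 1.32 in the same cells. These are the 2 cases in which a member differed by more than the larger SD over cells. In the formalin-fixed cells, the cell cycle genes had medians of 2811 RPM in neighboring and 1411 RPM in non-neighboring cells. Medians of the theca and interstitial genes were 8.96 and 47.6 RPM, and of the oocyte genes 986.9 and 81.5 RPM. The part of these markers in the values of Eed and Rbbp7 was not tested. Over the 8 datasets, 4, 2, 3, 2, 3, 2, 1 and 5 of 9 members counted were past 1, in the order DRaqL-SC3-seq, SMART-Seq v4, DRaqL-SMART-Seq v4, LCM-seq, DRaqL-Smart-seq2, formalin-fixed, same-mouse LCM and same-mouse dissociated. The shares of all genes counted past 1 were 23.7%, 34.8%, 29.2%, 28.3%, 21.9%, 35.8%, 22.8% and 56.6% in that order, and the first of them used the contrast that chose Suz12 and Jarid2.

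**Figure D3:**
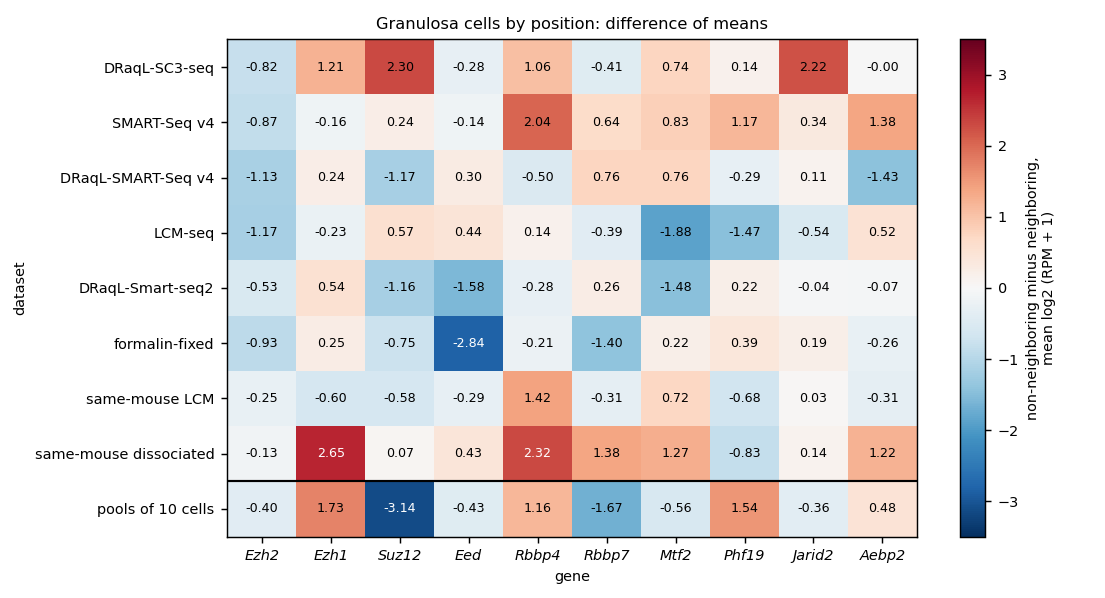
Difference in mean log2 (RPM+1), non-neighboring minus neighboring granulosa cells, for the 10 genes (columns) in 8 single-cell datasets and in the pools of 10 cells (bottom row), with red for higher in non-neighboring cells. Suz12 is at 2.30 in DRaqL-SC3-seq and -3.14 in the pools, and Ezh2 is below 0 in each row.

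Among the other Polycomb genes, 5 of 18 counted were higher and 1 lower in non-neighboring cells by DRaqL-SC3-seq, where 17.4% of all genes counted were higher and 6.28% lower. Pcgf3 and the cofactors Asxl1 and Asxl2 were among the higher, by 1.69, 1.08 and 1.10. In LCM-seq the balance was 1 higher and 10 lower of 24, with Ezhip at 5.08 in neighboring and 0.10 in non-neighboring cells, and in formalin-fixed cells 1 higher and 8 lower of 24, with Ezhip at 4.24 and 0.95. Of all genes counted, 7.80% were higher and 20.5% lower in LCM-seq and 12.6% and 23.1% in formalin-fixed cells, so lower values were also the more frequent ones there in general. The 14 oocyte genes had medians of 1545 and 29.8 RPM in neighboring and non-neighboring cells of LCM-seq and 986.9 and 81.5 RPM in formalin-fixed cells, and their part in the Ezhip values was not tested.

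The pools of 10 cells are the libraries in which position could be tested with replicates. Suz12 ran from 17.2 through 60.8 to 195.3 RPM in the 7 neighboring pools and from 0.400 through 10.0 to 17.8 RPM in the 7 non-neighboring pools. The groups overlapped by a single pair of pools, neighboring pool 1 and non-neighboring pool 3. The difference in mean log2 (RPM+1) was -3.14, the opposite sign of the DRaqL-SC3-seq single cells. In edgeR's quasi-likelihood test the log2 fold change was -3.25 ± 0.95 (SE), with p = 0.00274 and a Benjamini-Hochberg adjusted p of 0.289 over 9704 genes, and in DESeq2 it was -3.33 with an adjusted p of 0.00183. A two-sided exact permutation test over the 3432 splits of the 14 pools gave p = 0.00117, where 0.000583 is the smallest p that it can give. The sources used here do not tie pools to mice, so these p-values measure the spread between pools only.

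Rbbp7 was the other member that leaned to one side. Its levels ran from 86.7 through 245.5 to 438.7 RPM in neighboring and from 26.9 through 53.5 to 152.9 RPM in non-neighboring pools, so that the groups overlapped in the range of 86.7 to 152.9 RPM. The log2 fold change was -1.53 ± 0.53 (SE) with an adjusted p of 0.694 by edgeR and -1.59 with an adjusted p of 0.106 by DESeq2, and the exact permutation test gave p = 0.00874. Jarid2 ran from 0.510 through 60.9 to 153.2 RPM and from 0.262 through 27.4 to 114.9 RPM, and Ezh2 from 70.9 through 148 to 382.6 RPM and from 44.9 through 111.8 to 211.4 RPM. Both overlapped widely, with exact permutation p-values of 0.773 and 0.370, and the remaining 6 members had p-values from 0.180 to 0.647.

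No member passed the adjusted threshold of 0.05 in edgeR, of 9 tested, while 46 of 9704 genes (0.474%) did, all of them lower in non-neighboring pools. This number was 5 to 34 without 1 pool number at a time and 0 without the 3 pools richest in oocyte RNA. On simulated data, the fit recovered 2.13% of planted log2 changes of 2 and 19.5% of those of 3. By DESeq2, 110 genes were higher and 301 lower. Phf19 fell below the filter on low counts. At an unadjusted p under 0.05 there were 2 members, Suz12 and Rbbp7, beside 4.11% of all genes tested, and DESeq2 called 1 member of 10, Suz12, beside 2.91% of 14106 genes. With the pool number as a block, Suz12 was at -3.17 with an adjusted p of 0.735 by edgeR. The check of the numbers as pairs was mixed. Correlations of same-numbered deviations were 0.0143 to 0.204, and in 4 of 7 numbers a pool correlated best with its own number. Of the 31 other Polycomb genes, 25 were tested and none was called. Ezhip came closest, with a log2 fold change of -6.55 ± 1.56 (SE) and an adjusted p of 0.0771 in edgeR.

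**Figure D4:**
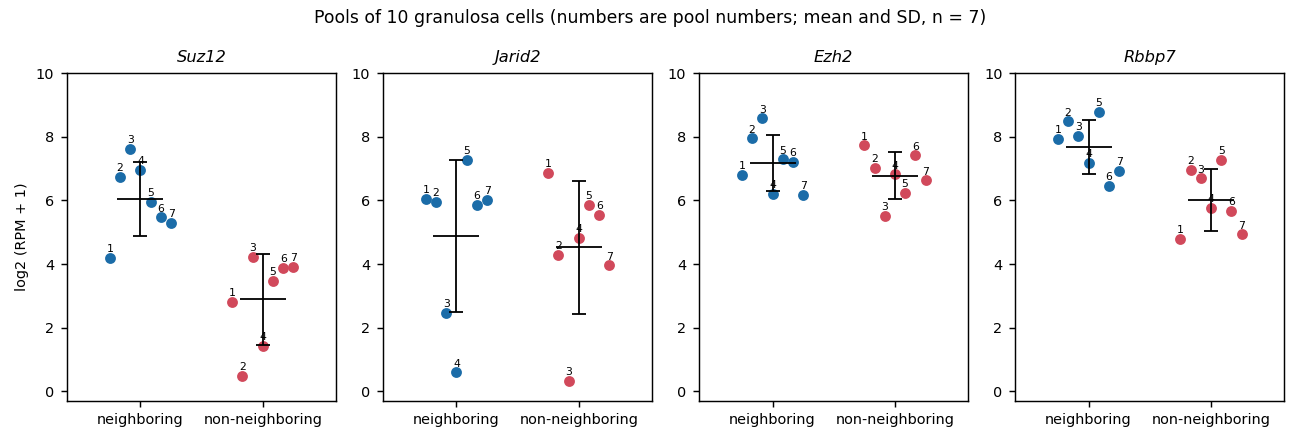
Suz12, Jarid2, Ezh2 and Rbbp7 in the pools of 10 granulosa cells, as log2 (RPM+1), where a point is 1 pool with its number and the bar is the mean with its SD over 7 pools. Suz12 is lower in the non-neighboring pools (mean 2.89 against 6.03) and Rbbp7 likewise (6.01 against 7.68), while the groups of Jarid2 and Ezh2 overlap widely.

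Markers of other cells differed between the same pools. The 14 oocyte genes, with H1foo as the most abundant, summed to 856.2 to 8865 RPM in neighboring and 2.34 to 151.1 RPM in non-neighboring pools, and none of them was at 0 in every pool of a group. The theca and interstitial genes summed to 0 to 611 RPM in neighboring pools, 611 being pool 1 and no other pool being above 1.35 RPM, and to 1.09 to 1685 RPM in non-neighboring pools. The cell cycle genes summed to 1321 to 3848 RPM and 633.1 to 2466 RPM. The 3 blood genes had a median of 0 RPM in both groups but reached 1700 RPM in a non-neighboring pool, led by Hbb-bs, and 16.5 RPM at most in neighboring pools, where Hbb-bs and Hba-a1 were at 0. The 2 endothelial genes reached 8.92 RPM in neighboring and 9.85 RPM in non-neighboring pools. The part of the blood and cell cycle genes in the results was not tested. Without the 3 neighboring pools richest in oocyte RNA, the exact permutation p was 0.0121 for Suz12 and 0.0182 for Rbbp7, whose log2 fold change was -1.66. Without the pools whose theca genes reached 100 RPM, which leaves 6 neighboring and 2 non-neighboring pools, Suz12 was at -3.75 and Rbbp7 at -2.44, and each had the smallest p that this exact permutation test allows, 0.0714. In pools and bulk samples, fewer cells of a type and less RNA per cell cannot be told apart. In the 7 bulk samples, Suz12 ran from 0.207 through 28.1 to 43.1 RPM and Jarid2 from 0.828 through 33.3 to 48.5 RPM.

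Isolation was compared in mESCs and in cells of the same mouse. LCM and fresh mESCs differed by less than 1 for 9 members, from -0.90 (Ezh1) to -0.02 (Suz12), and Aebp2 differed by -1.18, from 4.75 ± 1.81 to 3.58 ± 1.76. All 10 differences were negative, and of all genes counted 9.53% were lower and 0.835% higher by 1 after LCM. A read of Ezh1 was found in 44 of 45 cells labelled fresh and 31 of 36 labelled LCM. In the study, LCM mESCs had fewer detected genes with 3′ reads and fewer detected exons with Y-shaped adapters, as each set is labelled. The fresh and LCM labels of these 3′ libraries go against those of the libraries with Y-shaped adapters (below), and which set is exchanged was not tested. If it is this one, each sign turns, and Aebp2 is higher after LCM. With 1 of 9 members counted past 1, beside 10.4% of all genes, and a median of -0.25 for the members against -0.22 for all genes counted, the number of members past 1 was near the background.

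In the same mouse, Jarid2 had the largest difference of the 10 members between isolations in each of the 3 groups. It averaged 9.89 ± 0.90 in 35 neighboring LCM cells against 3.77 ± 2.52 in 14 attached dissociated cells, a difference of 6.12, and 9.92 ± 0.63 against 3.90 ± 2.82 in non-neighboring and unattached cells, a difference of 6.01. In oocytes it averaged 9.76 ± 0.80 after LCM (n = 8) and 6.68 ± 0.33 after dissociation (n = 14), a difference of 3.07. Each of these exceeds the larger SD of the pair, and as many as 0.277%, 0.0528% and 1.09% of all genes counted differed at least as far in that direction. The sections and the dissociated cells differ at once in isolation, in lysis and amplification (DRaqL-Smart-seq2 against Smart-seq2) and in follicle stage. They also differ in the cAMP analog, used for dissociated cells only. The unattached dissociated cells came from cumulus-oocyte complexes, so they need not match the non-neighboring cells of sections. These differences cannot be told apart. Jarid2 was also at 8.75 ± 1.03 to 8.95 ± 1.04 in formalin-fixed granulosa cells, but at 6.28 ± 1.00 to 6.32 ± 1.00 in alcohol-fixed sections by DRaqL-Smart-seq2 and at 5.60 ± 2.19 to 6.14 ± 1.56 by LCM-seq.

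Suz12 differed by 0.67, 0.02 and 0.53 (neighboring, non-neighboring, oocytes), Ezh2 by 0.83, 0.71 and 0.18, and Rbbp7 by 0.21, -1.48 and -0.63. Ezh1 was higher by 2.75 in neighboring LCM cells and 1.18 in LCM oocytes and differed by -0.51 in non-neighboring LCM cells. Members past 1 numbered 4, 3 and 2 of 9, beside 59.5%, 63.8% and 39.6% of all genes counted. Of the other Polycomb genes, Phc3, a Polyhomeotic subunit of complex 1, was higher after LCM by 3.93 and 1.80 in neighboring and non-neighboring cells. The LCM cells are those of the position comparison of the same mouse, so both sets of values share them.

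**Figure D5:**
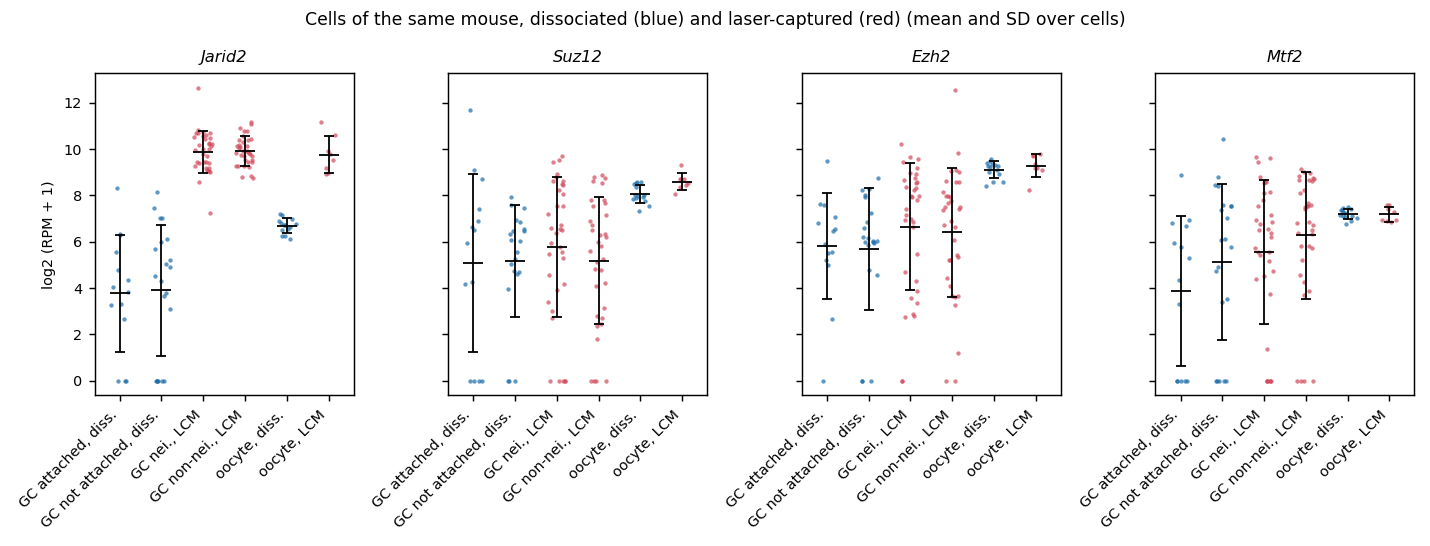
Jarid2, Suz12, Ezh2 and Mtf2 in granulosa cells (GC) and oocytes of the same mouse, dissociated (diss., blue) or laser-captured (red), as log2 (RPM+1), where a point is 1 cell and the bar is the mean with its SD. Jarid2 averages 9.76 to 9.92 in the 3 laser-captured groups and 3.77 to 6.68 in the 3 dissociated groups, while Suz12 and Ezh2 differ by less than 1.

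Libraries with Y-shaped adapters, which also read internal parts of the cDNA amplified by DRaqL-SC3-seq, were made from 5 secondary-to-antral oocytes and 10 mESCs, of the same amplified cDNA as in the 3′ libraries. Across 22060 genes, each of the 5 oocyte libraries had its highest rank correlation with the 3′ library of the same cell name. Each of the 5 mESC libraries labelled fresh correlated best with a 3′ library labelled LCM, and each of the 5 labelled LCM with one labelled fresh, so the labels of one set go against the other and the 10 mESC libraries were pooled as 1 group. Exon totals were 2988268 to 7729498 reads in mESCs and 3408025 to 4139747 in oocytes. For Ezh2, 31.7% of the reads in mESCs and 36.8% in oocytes lay on its last exon (chr6:47530274-47530601, GRCm38), and 19 of its 20 exons had a read in each cell type. For Suz12, 99.9% of the mESC reads lay on the last exon (chr11:80031845-80034123, 2279 bases), with 99.2% as the lowest library, against 74.7% in oocytes (63.8% to 84.2%), where 14 of 16 exons had a read. Mtf2 had 83.4% of mESC reads and 51.5% of oocyte reads on its last exon, and Rbbp7 had 41.8% and 67.8%.

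Levels per length were also taken in these libraries, but reads were not spread evenly along transcripts. The last exon held 99.7% of Ezh1 reads in mESCs and 96.1% in oocytes, against 31.7% and 36.8% for Ezh2. The order of genes on this scale is therefore not read as their order of abundance. The median per kilobase of transcript in oocytes was 322.6 RPM for Rbbp7, 280.8 for Ezh2, 82.8 for Eed, 20.9 for Jarid2, 20.8 for Suz12 and 15.0 for Ezh1. In mESCs it was 160.8 RPM for Rbbp7, 141 for Eed, 107.4 for Ezh2, 62.3 for Mtf2, 25.5 for Suz12 and 2.33 for Ezh1. On this scale Ezh2 was above Ezh1 in both cell types, although reads at 3′ ends make values per length depend on where a transcript ends. The difference between oocytes and mESCs in log2 (RPM+1) was 2.21 for Ezh1, 1.50 for Ezh2, 1.06 for Rbbp4 and -2.23 for Mtf2 with exon reads, and 2.86, 1.86, 1.62 and -2.25 with 3′ reads of the full groups, which hold the same cells and cDNA. Suz12 and Eed were at -0.17 and -0.45 with exon reads and at -0.72 and -1.06 with 3′ reads.

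Group means were compared across 11 groups of 3′ single cells, pools, bulk samples and serial sections. The first and the second sections of the same oocytes entered as separate groups. The genes most like Suz12, among 10436 genes, were Fen1, Rad54l and Ckap2, with Pearson's r of 0.981, 0.972 and 0.955. For Jarid2 they were Nfkbib, Hus1 and Ube2k, at 0.974, 0.972 and 0.972, and for Ezh2 B4galt5, Slbp and Fbxo8, at 0.990, 0.990 and 0.989. Among the members over the same groups, r was 0.88 for Jarid2 with Ezh2, 0.82 for Eed with Mtf2 and 0.81 for Suz12 with Eed, and -0.00294 for Suz12 with Ezh1. No background of r over all genes is given, so these values are not read as particular to the members.

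Some of these genes overlap others on the opposite strand, and the strand setting of the gene counts is not given in the sources used here, so their reads cannot be told from those of the partner. The protein-coding partners are Tmed5 at the end of Mtf2, Sync and the noncoding Gm26722 at the end of Rbbp4, and Txlng at the end of Rbbp7. Noncoding genes lie across Ezh2 (Gm26625), Suz12 (Gm26563) and the start of Eed (E230029C05Rik). In the pools, Gm26563 had 19 reads in neighboring and 15 in non-neighboring pools, against 3402 and 376 reads of Suz12, and Txlng had 538 and 931 reads against 8346 and 3202 of Rbbp7.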

How the data were processed

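Read counts per gene in 562 libraries and per exon in 15 libraries were analyzed as the authors deposited them. The authors trimmed reads with fastp 0.20.0 and cutadapt 1.16, mapped them to GRCm38 with HISAT2 2.1.0 and counted those within 10 kb of annotated 3′ ends with HTSeq 0.10.0, or per exon with featureCounts 2.0.1. Replicates were not pooled. The tools and versions come from the study's methods and the submitters' processing notes, and the strand setting of the gene counts is not given in the sources used here.

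The deposited counts of 22060 protein-coding genes were scaled to RPM and averaged as log2 (RPM+1). For single cells, genes with a mean of both group means of at least 2 were counted, and a difference of 1 was the threshold, with no test. The 7 neighboring and 7 non-neighboring pools were compared with edgeR 4.0.16 (quasi-likelihood test, TMM scaling, filterByExpr, Benjamini-Hochberg adjustment, adjusted p under 0.05) and with two-sided exact permutation tests of mean log2 (RPM+1). DESeq2 1.42.0 was an alternative, as were other scalings, no filter, other pseudocounts (0.1 and 10), summed counts, thinned reads, library pools, and leaving out each pool number, oocyte-rich cells or pools, or pools rich in theca genes. The exclusions of pools by oocyte or theca genes were chosen after seeing the data. Fits were tested on simulated data. R 4.3.3, Python 3.11.15, numpy 2.4.6, pandas 2.3.3 and scipy 1.17.1 were used.

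The members and gene lists were chosen with earlier results of these data known. All 10 members are named. Other Polycomb genes are named from those that differ by at least 1 with a mean of at least 4 in at least 1 group, at most 5 in each direction (1 such result is not reported here), and Ezhip in the pools was chosen after its values were seen. Like genes are the 3 with the highest correlation of group means. Pool numbers were checked for pairing by the correlation of same-numbered deviations from the group means, which was 0.0143 to 0.204 over the 7 numbers and over 0.1 in 2 of them, so the numbers were not taken as pairs. In 4 of 7 numbers a pool correlated best with its own number, and the number as a block was an alternative. Exon junction counts and spike-in counts were not used here.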

Additional observations from a re-analysis of the deposited data

Results flagged for a closer look

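Of 137 pairs of a gene and a group of 4 to 10 samples, 18 held a library whose gap to the nearest other one was large for the range of the group. No rate by chance is given, since the rule assumes normal values and some of these libraries were at 0. For Phf19 in primary oocytes by SMART-Seq v4 and DRaqL-SMART-Seq v4, all libraries but the highest were at 0. These 18 fell in 12 groups of samples, 5 of them in primary oocytes by DRaqL-SMART-Seq v4. Values are log2 (RPM+1). In that group, with 6 libraries, Suz12 was at 0 in library 5, Jarid2 at 4.849 and Mtf2 at 0 in library 2, and Phf19 at 1.782 and Rbbp4 at 8.378 were the highest. Bulk granulosa sample 2 was lowest for both Suz12 (0.2715) and Jarid2 (0.8705). In same-mouse LCM oocytes, library 8 was lowest for Ezh2 (8.25) and Eed (5.783).

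The remaining values stood apart singly. Aebp2 was lowest in an oocyte with Y-shaped adapters (0), in a formalin-fixed secondary-to-antral oocyte (3.534) and in the second section of an oocyte (3.668), and Ezh1 in the first section of an oocyte (4.767) and in non-neighboring pool 6 (2.449). Rbbp4 was lowest in a secondary-to-antral oocyte by DRaqL-SMART-Seq v4 (5.71). Phf19 was highest in a primary oocyte by SMART-Seq v4 (2.153) and in neighboring pool 7 (5.617), and Jarid2 in a formalin-fixed primary oocyte (10.55).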

How the results depend on the processing

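Of 1360 repeats of the members' single-cell differences under other settings, 1325 stayed within the spread over cells and 19 moved beyond it without reversing. The sign was opposite in 122, of which 16 had a difference past 1 as reported and the others a smaller one. Members past 1 by position went with a pseudocount of 10 from 4 to 2 in DRaqL-SC3-seq, from 2 to 1 in SMART-Seq v4, from 3 to 0 in DRaqL-SMART-Seq v4, from 2 to 1 in LCM-seq, from 3 to 1 in DRaqL-Smart-seq2, from 1 to 0 in same-mouse LCM and from 5 to 3 in same-mouse dissociated cells. With summed counts they were 0 in DRaqL-SMART-Seq v4, LCM-seq and DRaqL-Smart-seq2 and 2 in same-mouse LCM cells. In SMART-Seq v4 they were 4 with a pseudocount of 0.1 and without oocyte-rich cells, in LCM-seq 1 with thinned reads and without oocyte-rich cells, and in same-mouse dissociated cells 3 within library pools. By stage they went from 5 to 3 with summed counts in DRaqL-SMART-Seq v4 and in formalin-fixed cells. In mESCs they were 2 and 0 with pseudocounts of 0.1 and 10, and between isolations of oocytes 1 with a pseudocount of 10 and with TMM scaling. Between oocytes and granulosa cells they were 5, 5, 3 and 1 with a pseudocount of 10 and 1, 3, 2 and 0 with summed counts in DRaqL-SC3-seq, SMART-Seq v4, DRaqL-SMART-Seq v4 and formalin-fixed cells, and 5 with summed counts in same-mouse dissociated cells. The median of the members there turned to -0.00293 in SMART-Seq v4 and -0.159 in same-mouse LCM cells with summed counts. Shares of all genes under these settings are not given beside the counts of members. The causes were not tested.

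The 16 differences past 1 that changed sign were as follows. By position in DRaqL-SC3-seq, Ezh1 was at -0.33 with summed counts, and Suz12 at -0.32 and Rbbp4 at -0.15 among cells numbered from 70. In same-mouse dissociated cells, Mtf2 was at -1.92 and Rbbp4 at -1.23 within library pools. For oocytes minus granulosa cells with summed counts, Mtf2 was at -0.26 and Rbbp4 at -0.24 in DRaqL-SC3-seq, Ezh1 at -0.60, Mtf2 at -0.0754 and Aebp2 at -1.23 in SMART-Seq v4, Aebp2 at -0.12 in DRaqL-SMART-Seq v4, Mtf2 at -0.0182 in formalin-fixed cells, Ezh1 at -0.19, Mtf2 at -0.42 and Aebp2 at -1.11 in same-mouse LCM cells, and Suz12 at -0.00603 in same-mouse dissociated cells. Among the smaller ones, Suz12 by position went from 0.24 to -1.02 in SMART-Seq v4, from -0.75 to 0.69 in formalin-fixed cells and from 0.07 to -3.11 in same-mouse dissociated cells with summed counts. Shares of libraries with at least 5 reads in place of 1 moved beyond their interval in 117 of 440 cases.

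In the pools, DESeq2 called 1 member in place of 0. Exact permutation tests at p under 0.05 numbered 2 of 10 members, and 0 without the pools rich in theca genes, where 2 non-neighboring pools are left and the smallest possible p is 0.0714. No share of all genes by this test stands beside these counts. Without 1 pool number at a time, edgeR called 0 members each time and 5 to 34 genes, and the exact permutation p was 0.00216 to 0.00433 for Suz12 and 0.0108 to 0.0325 for Rbbp7. With the pool number as a replicate block, edgeR called 5 genes and 0 members, and the adjusted p was 0.735 for Suz12 and 0.412 for Rbbp7. An exact sign-flip permutation gave p = 0.0156 for both, the smallest p that 7 numbers allow. In 4 of 7 numbers, a pool correlated best with its own number. Without the 3 pools richest in oocyte RNA, edgeR called 0 genes. The depth of dissociated granulosa cells, from 12748 reads, leaves low members such as Phf19 undecided there.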
